A study of Arabidopsis thaliana with 4 samples.

Results

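Nuclei of Arabidopsis root tips were scored by how much of their open chromatin lay at genes that mark the stele, the central cylinder of the root. Each nucleus was assayed for accessible DNA (ATAC) and for RNA in one droplet (10x Multiome). In the ATAC part a transposase inserts into accessible DNA, and each insertion in a called peak was counted. The score of a nucleus was the percentage of its ATAC counts in peaks over the body or the 2 kb upstream of 14 stele marker genes. Barcodes with 3000 to 100000 ATAC counts and 1000 to 25000 RNA counts were taken as nuclei, 28869 in all. The 5% with the highest score in each library, 1443 nuclei, are called stele-scored nuclei here. The 2 groups were plants of Col-0, the reference accession, of which 5 mm root tips were taken: osmotic stress, with sorbitol added to the growth medium, and control, on the same medium without sorbitol. Each group had 2 libraries, and 15000 nuclei were loaded into each. Stress replicates 1 and 2 gave 431 and 420 stele-scored nuclei of 8613 and 8399, and control replicates 1 and 2 gave 211 and 381 of 4229 and 7628.

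The stele holds the xylem, the phloem, the procambium between them and the pericycle that surrounds them. It is laid down under auxin and cytokinin: cytokinin maintains dividing procambium through the receptor WOL, and the bHLH pair TMO5 and LHW drives local cytokinin synthesis through LOG enzymes. The mobile GRAS factor SHR is made in the stele and moves out to the endodermis. Water and ions taken up by the outer tissues are loaded into the xylem in the stele and carried to the shoot.

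Libraries differed in depth and in the peaks that could be scored. The total count per library was 47853119 to 75473335 for ATAC and 124826609 to 189509527 for RNA, over 731204 to 736139 barcodes, and 19858 to 25001 peaks had been called per library. Control replicate 1 stood apart, with the fewest nuclei, counts and peaks and with the largest share of ATAC counts in nuclear DNA that matches the mitochondrial genome. Between 57 and 118 nucleus barcodes were shared by 2 libraries, and 0 of them were stele-scored in both. No doublet caller was run. The libraries are the replicates below, described as biological replicates by the study without further detail of their plants.

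The sequences that carry the results come first. One open region was more accessible in stele-scored nuclei than in other nuclei of the same depth, and 3 regions had the largest increases under stress within stele-scored nuclei by the naming rule and are shown with values known. The central 300 bases of each are given 5′ to 3′ on the plus strand of TAIR10, from the RefSeq sequence (TAIR10.1). None of these windows lay in an annotated gene, but the open region upstream of CIPK25 also overlaps, outside the window shown, AT5G03915, a non-coding RNA gene whose start is the nearest to it. Capitals mark matches, on either strand, of AGATT (type-B response regulators of cytokinin), TGTCTC (auxin response factors), CACGTG (the G-box), TTGACC (WRKY) and ACGTGT (the abscisic acid response element).

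stele-scored region, chr5:16863589-16863888: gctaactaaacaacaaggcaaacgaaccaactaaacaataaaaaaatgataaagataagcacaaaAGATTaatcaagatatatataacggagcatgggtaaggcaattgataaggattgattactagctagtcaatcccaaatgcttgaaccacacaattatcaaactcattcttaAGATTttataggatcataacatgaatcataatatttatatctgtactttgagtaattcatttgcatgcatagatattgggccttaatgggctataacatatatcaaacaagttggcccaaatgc

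stress region next to AT2G19840, chr2:8567166-8567465: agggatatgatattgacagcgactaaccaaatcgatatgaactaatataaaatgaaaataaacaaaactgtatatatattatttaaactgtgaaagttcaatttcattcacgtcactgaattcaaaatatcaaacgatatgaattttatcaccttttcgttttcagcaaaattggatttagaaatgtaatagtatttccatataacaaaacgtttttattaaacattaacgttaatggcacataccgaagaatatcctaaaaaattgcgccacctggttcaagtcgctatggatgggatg

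stress region between AT2G20080 and AT2G20100, chr2:8668340-8668639: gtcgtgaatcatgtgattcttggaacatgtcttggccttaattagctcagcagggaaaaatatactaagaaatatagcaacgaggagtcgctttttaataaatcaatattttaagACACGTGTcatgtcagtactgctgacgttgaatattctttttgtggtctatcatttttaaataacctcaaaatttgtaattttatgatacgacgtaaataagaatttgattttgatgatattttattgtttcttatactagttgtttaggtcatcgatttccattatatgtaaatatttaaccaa

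stress region upstream of CIPK25, chr5:8660152-8660451: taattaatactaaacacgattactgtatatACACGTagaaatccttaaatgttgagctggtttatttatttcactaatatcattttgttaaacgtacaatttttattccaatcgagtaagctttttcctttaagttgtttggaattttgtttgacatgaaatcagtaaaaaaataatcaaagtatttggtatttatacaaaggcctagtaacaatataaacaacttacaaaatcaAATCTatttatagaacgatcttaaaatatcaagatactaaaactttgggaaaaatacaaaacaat

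The stele-scored region held 2 AGATT matches and 3 matches of AAAG, the core of DOF sites, which is not capitalised. Over the central 300 bases of the 18330 regions tested, AGATT occurred in 66.6% and AAAG in 98.7%. The stress region between AT2G20080 and AT2G20100 held 1 CACGTG and 2 overlapping ACGTGT matches in one palindrome, and the region upstream of CIPK25 held 1 ACGTGT, 1 AGATT and 5 AAAG matches. CACGTG occurred in 13.5% of all windows and ACGTGT in 17.5%. The region next to AT2G19840 held 2 AAAG matches and none of the other motifs, of which TGTCTC occurred in 15.7% and TTGACC in 16.7% of windows. A match is a run of letters and not a site shown to be bound.

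The markers that chose the nuclei are given as a description. Of the 14, WOL (chr2:362983-369707), ATHB-8 (an HD-ZIP III factor of procambium), SMXL5 (a phloem regulator), LBD29 (a lateral root factor), TIP2-3 (a tonoplast aquaporin), LBD14 and LOG5 (a cytokinin-activating enzyme) had a peak in all 4 libraries. TMO5 and XTH20 (a xyloglucan enzyme) had one in 3 libraries, AT4G22900 in 2, and NPF7.3 (a nitrate loader of the xylem) and AT4G14650 in 1. SHR and PDLP7 (a plasmodesmata protein) had no peak in any library and added nothing to the score. The score therefore rested on 12 genes, and on a different set of peaks in each library.

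The marker that gave the most counts was TIP2-3 in stress replicate 1, ATHB-8 in stress replicate 2 and control replicate 2, and WOL in control replicate 1. TIP2-3 stood at 467, 259, 176 and 186 counts per 1e6 ATAC counts (CPM) in stele-scored nuclei of stress replicates 1 and 2 and control replicates 1 and 2, and ATHB-8 at 265, 287, 215 and 372 CPM. WOL stood at 248, 277, 281 and 200 CPM. At least 1 count at TIP2-3 was found in 39.6% to 73.5% of stele-scored nuclei per library, against 13.1% to 30.1% of other nuclei matched for depth. The scarcest marker was AT4G14650, with a count in 6.96% of stele-scored nuclei of the one library where it had a peak, against 2.83% of matched nuclei. Each marker was 2.63 to 4.96 times higher in stele-scored than in matched nuclei, as the rule requires.

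A nucleus entered on few counts. Stele-scored nuclei had a median of 8, 6, 7 and 8 marker counts in stress replicates 1 and 2 and control replicates 1 and 2, against 2 in depth-matched nuclei of every library. A median of 3 of the markers had a count, against 1, and at most 8 did in any stele-scored nucleus. At least 4 markers had a count in 47.1%, 23.6%, 36.0% and 44.4% of stele-scored nuclei, against 2.97%, 1.19%, 3.32% and 2.41% of matched nuclei. More than 50% of the marker counts came from 1 gene in 23.7% to 33.3% of stele-scored nuclei.

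**Figure D1:**
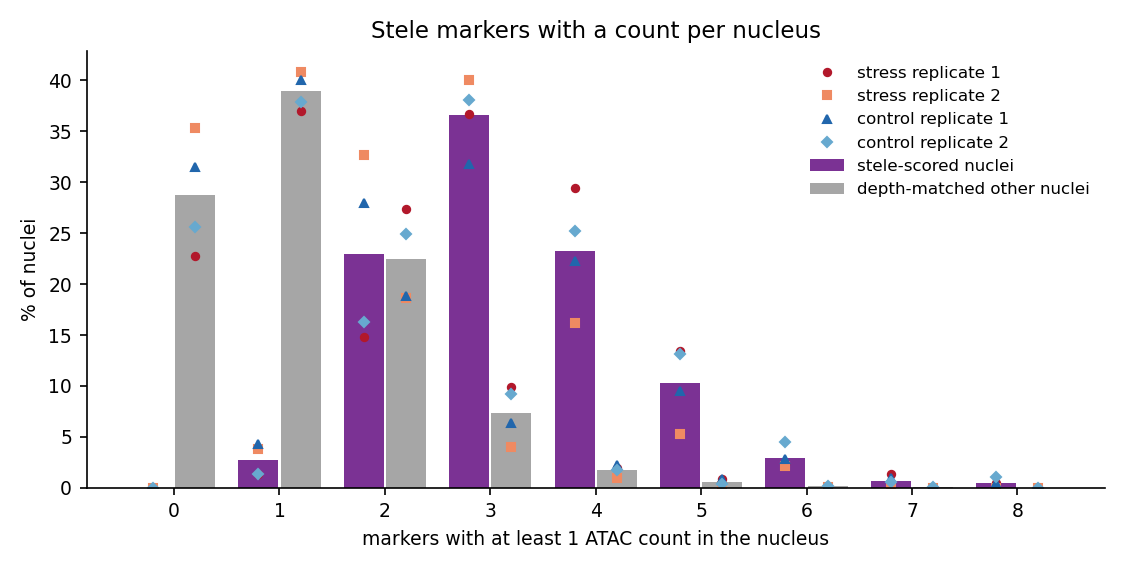
Percentage of nuclei (y axis) by the number of stele markers with at least 1 ATAC count (x axis), for stele-scored nuclei and, right of them, depth-matched other nuclei. Bars are the mean of the 4 libraries and points are single libraries; stele-scored nuclei centred on 3 markers and matched nuclei on 1, and both sets held nuclei with 1 to 4 markers.

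The limit fell in a continuous range. The lowest score inside was 0.148% and 0.124% in stress replicates 1 and 2 and 0.119% and 0.139% in control replicates 1 and 2, and the highest score outside was 0.148% and 0.124% in the stress libraries and 0.118% and 0.139% in the control libraries. Median scores were 0.176%, 0.144%, 0.140% and 0.162% in stele-scored nuclei, against 0.0536%, 0.0328%, 0.0348% and 0.0480% in matched nuclei. A score of 0 was found in 16.3% to 24.0% of nuclei, and scores ran on without a gap at the limit.

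Shallow nuclei were over-represented. Stele-scored nuclei made up 8.64%, 9.85%, 9.45% and 8.64% of the shallowest 25% of nuclei in stress replicates 1 and 2 and control replicates 1 and 2, and 1.44%, 1.76%, 1.04% and 0.839% of the deepest 25%. Their median ATAC counts were 4418, 4077.5, 4781 and 4321, against 5566.5, 5714, 6968.5 and 5745 in all other nuclei. Stele-scored nuclei were therefore compared below with 7215 other nuclei, 5 for each, matched on ATAC counts within the library, unless another set is named. Stress was compared with control without matching on depth between the groups. When each nucleus was thinned to 3000 ATAC counts before scoring, 54.8%, 50.7%, 46.0% and 53.8% of the stele-scored nuclei were chosen again.

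Markers left out of the score did not follow it. For each marker in turn, nuclei were chosen anew by the other 13, and the marker left out was compared between these and depth-matched nuclei. Summed over markers, accessibility was 0.981 and 1.04 times that of matched nuclei in stress replicates 1 and 2 and 1.1 and 1.08 times in control replicates 1 and 2 (mean 1.05 ± 0.0512, SD, n = 4). The same sums with the markers inside the score were 3.62 ± 0.336 times those of matched nuclei (SD, n = 4), which the rule sets. Of 38 marker and library pairs, 24 were above 0 and 14 below on the log2 scale, with a median of 0.07 and a range of -0.66 to 0.43. These values carry no test.

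**Figure D2:**
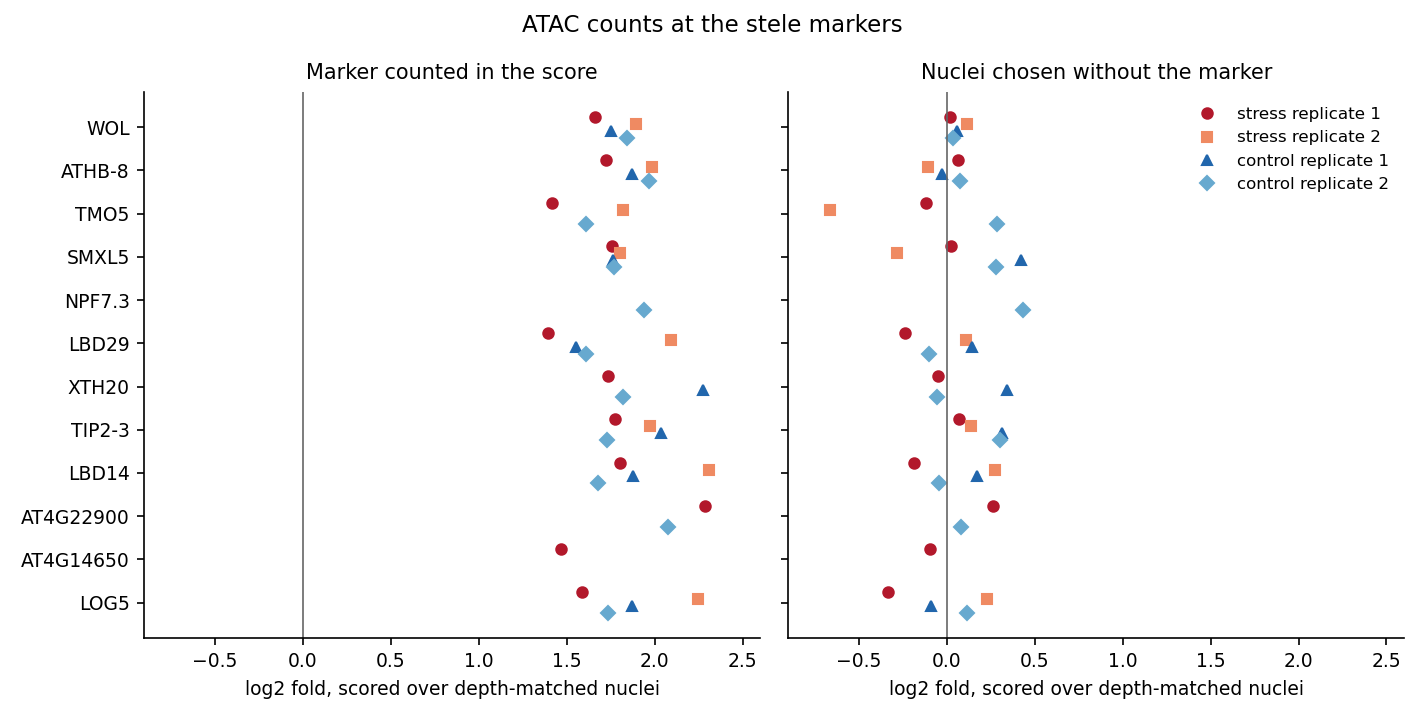
Log2 fold of ATAC counts at each marker with a peak (y axis), scored over depth-matched nuclei (x axis), by library. Left, with the marker counted in the score; right, in nuclei chosen without that marker, where the 38 values spread around 0.

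TIP2-3 and WOL were above matched nuclei in all 4 libraries when left out. TIP2-3 averaged 0.21 ± 0.12 and WOL 0.06 ± 0.04 on the log2 scale (SD, n = 4), so WOL was 1.01, 1.08, 1.04 and 1.03 times the matched level in stress replicates 1 and 2 and control replicates 1 and 2. ATHB-8, the procambium factor, averaged 0.0013 ± 0.086 and LOG5 -0.02 ± 0.25. SMXL5 averaged 0.11 ± 0.31, with 3 libraries above 0 and 1 below. A nucleus rich in counts at some of the markers was thus hardly richer at the rest, so the data do not bear out a cell type name for these nuclei, and they are called by their score throughout.

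Outside the marker windows, 1 of 18330 regions differed between stele-scored and matched nuclei. Peaks of the 4 libraries were merged where they overlapped, and regions with a peak in all libraries and outside the windows were tested on counts summed per library, with edgeR's quasi-likelihood test, the library as a block and Benjamini-Hochberg adjustment over all regions. This called 0.00546% of regions higher and 0% lower at an adjusted p under 0.05, and 1285 regions had an unadjusted p under 0.05. DESeq2 called 8 regions, 0 higher and 8 lower. The median standard error of a log2 difference was 0.126.

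The region (chr5:16863259-16864218) was intergenic, 1969 bases after the end of AT5G42200 and 1552 bases before the start of AT5G42210. It held 58.1, 70.9, 99.0 and 72.2 CPM in stele-scored nuclei of stress replicates 1 and 2 and control replicates 1 and 2, against 50.8, 41.8, 47.1 and 48.0 CPM in matched nuclei. The stele-scored value was the higher in every library and the groups did not overlap. The log2 difference was 0.65 (SE 0.12, adjusted p = 0.00344, edgeR). The call was lost without stress replicate 2 (log2 0.61, adjusted p = 0.203) and without control replicate 1 (log2 0.52, adjusted p = 0.232). It was also lost with an ATAC minimum of 5000 (log2 0.25, adjusted p = 0.794), with thinned scores (log2 0.42, adjusted p = 0.194) and without the library block (log2 0.66, adjusted p = 0.999). DESeq2 called 0 regions higher and gave this region no adjusted p, so it could not have called it.

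Accessibility per gene, the counts of all tested regions over its body and 2 kb upstream, gave 3 genes higher and 31 lower of 23631. These were 0.0127% and 0.131% of the genes tested, with 1730 genes at an unadjusted p under 0.05. Of the 31 genes that fell, 29 lay at regions that match the mitochondrial genome, in the insertion of mitochondrial DNA on chromosome 2 (3.245 to 3.51 Mb, 118 tested regions). Reads from mitochondria and from this nuclear copy share their sequence and cannot be told apart in these counts. With such regions left out of the fit, which removes these 29 genes from it, 0 of the remaining genes were called (1611 at an unadjusted p under 0.05), while the log2 differences of the 5 others, which did not pass, were 0.49 for LARP6a, 0.41 for AGT3, 0.38 for DHNAT2, -0.50 for AT4G30240 and -0.45 for EPF2. All 34 calls were lost when the score was taken over ATAC counts outside such regions and without stress replicate 1 (0 genes called in each, with 1669 and 1498 at an unadjusted p under 0.05). DESeq2 called 0 genes higher and 63 lower. It gave no adjusted p to the 5 called genes outside such regions, so it could not have called them. Without control replicate 1, the library with the largest share of such counts, 1 gene was called higher and 1 lower, without stress replicate 2 0 were higher and 2 lower, and without control replicate 2 5 were higher and 61 lower.

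The 3 genes that rose were LARP6a (chr5:18755280-18758333), a La-related RNA-binding protein, AGT3 (chr2:16083645-16086453), an alanine:glyoxylate aminotransferase, and DHNAT2 (chr5:19845999-19847435), a thioesterase of phylloquinone synthesis. LARP6a held 43.1, 39.2, 53.8 and 41.7 CPM in stele-scored nuclei of stress replicates 1 and 2 and control replicates 1 and 2, against 30.9, 27.1, 34.8 and 33.6 CPM in matched nuclei. The groups did not overlap, and the log2 difference was 0.49 (SE 0.11, adjusted p = 0.0114, edgeR). The window of LARP6a held 1 tested region, which was not called when tested as a region. AGT3 averaged 57.8 ± 6.6 CPM against 43.3 ± 2.63 CPM in matched nuclei (SD, n = 4 libraries), a log2 difference of 0.41 (SE 0.09), and DHNAT2 averaged 60.7 ± 6.21 against 47.1 ± 5.2 CPM, a difference of 0.38 (SE 0.09). For genes, CPM is per 1e6 counts summed over all gene windows, so that a region in several windows counts in each. With thinned scores LARP6a, AGT3 and DHNAT2 were at 0.07, 0.20 and 0.15, with the top 10% of scores at 0.27, 0.19 and 0.17, and with an ATAC minimum of 5000 at 0.36, 0.25 and 0.27, and none passed in these. None of the 3 is a stele marker of the study.

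AT4G30240 (chr4:14807889-14810075) and EPF2 (chr1:12472868-12473974), a peptide that limits stomatal density in leaves, were the only genes that fell outside the mitochondrial insertion. EPF2 held 28.3, 24.5, 33.9 and 37.7 CPM in stele-scored nuclei of stress replicates 1 and 2 and control replicates 1 and 2, against 42.8, 45.5, 39.2 and 40.7 CPM in matched nuclei. Its log2 difference was -0.45 (SE 0.11, adjusted p = 0.0344, edgeR), and that of AT4G30240 was -0.50 (SE 0.11, adjusted p = 0.0114). Each of the windows held 1 tested region, and neither region was called when tested as a region. With thinned scores EPF2 and AT4G30240 were at -0.22 and -0.034, with the top 10% of scores at -0.11 and -0.19, and with an ATAC minimum of 5000 at -0.15 and -0.32, and neither passed in these. Within the insertion, AT2G07784, a pseudogene (chr2:3317798-3318634), had the largest fall, with 25.2, 37.3, 96.5 and 50.5 CPM against 45.7, 45.8, 129.8 and 58.9 CPM (log2 -0.43, SE 0.09, adjusted p = 0.00824). AT2G07648, AT2G07719 and AT2G07795 fell by 0.31, 0.30 and 0.25 on the log2 scale.

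Counts in these mitochondrial-like peaks also belong to the denominator of the score. They made up 1.46%, 1.56%, 4.35% and 2.11% of ATAC counts in stele-scored nuclei of stress replicates 1 and 2 and control replicates 1 and 2, against 1.80%, 1.78%, 4.96% and 2.24% in matched nuclei. In all other nuclei, which were deeper, they made up 1.46%, 1.44%, 3.52% and 1.61%. These are shares of summed counts. The median share per nucleus was 0.673%, 0.752%, 1.84% and 0.873% in stele-scored nuclei, against 0.781%, 0.721%, 2.68% and 0.850% in matched nuclei, so it was lower in replicate 1 of both groups and higher in replicate 2 of both groups. With the denominator free of them, the log2 differences of AT2G07648, AT2G07719 and AT2G07795 were 0.0039, 0.0013 and 0.012. AT2G07784 stayed below 0 there and did not pass.

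**Figure D3:**
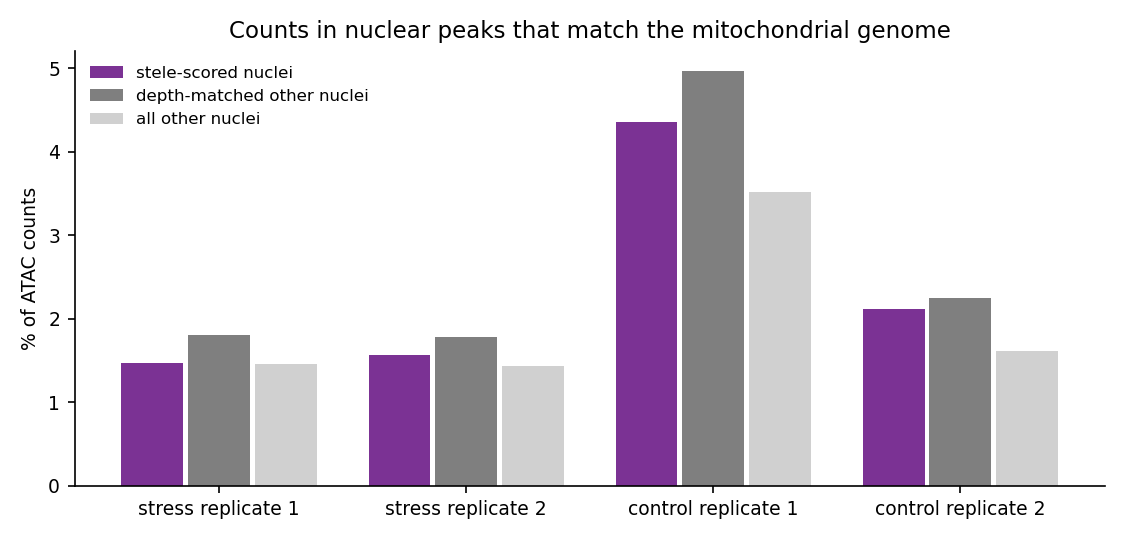
Percentage of summed ATAC counts (y axis) in nuclear peaks that match the mitochondrial genome, by library (x axis), one bar per set of nuclei. By summed counts stele-scored nuclei lay below depth-matched nuclei in all 4 libraries (by the median per nucleus in 2 of 4), and control replicate 1 was the highest library at 4.35% and 4.96%.

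No stele gene list moved with the score. The 16 lists were marker lists of the study without the genes of the rule, textbook lists for vascular transcription factors, cytokinin signalling, stele transport, pericycle and lateral roots and SHR targets, and osmotic stress genes. None of their genes passed the test in either direction. For single genes the background was high in any case, since 7.19% of all genes were higher in stele-scored nuclei in all 4 libraries and 7.85% were lower. The 5 tested stele and procambium markers outside the rule were all below 0, with a median log2 difference of -0.05, against -0.0014 over all genes tested.

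Of the study's other vascular markers, 8 of 12 tested pericycle markers were above 0 (median 0.10), 11 of 19 phloem markers (median 0.04) and 17 of 41 xylem markers (median -0.03). Markers of tissues outside the stele had medians in the same range: 15 of 20 endodermis markers were above 0 (median 0.06), 9 of 19 cortex markers (median -0.03), 12 of 25 trichoblast markers (median -0.02), 7 of 12 atrichoblast markers (median 0.04), 11 of 22 root cap markers (median 0.01) and 11 of 18 markers of the quiescent centre and dividing cells (median 0.07). The highest median, 0.11, was that of 3 SHR targets of the ground tissue. The stele and procambium list had the lowest median of all lists, and the pericycle markers had the second highest. The lists of stele tissues thus lay on both sides of 0, as did those of other tissues.

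**Figure D4:**
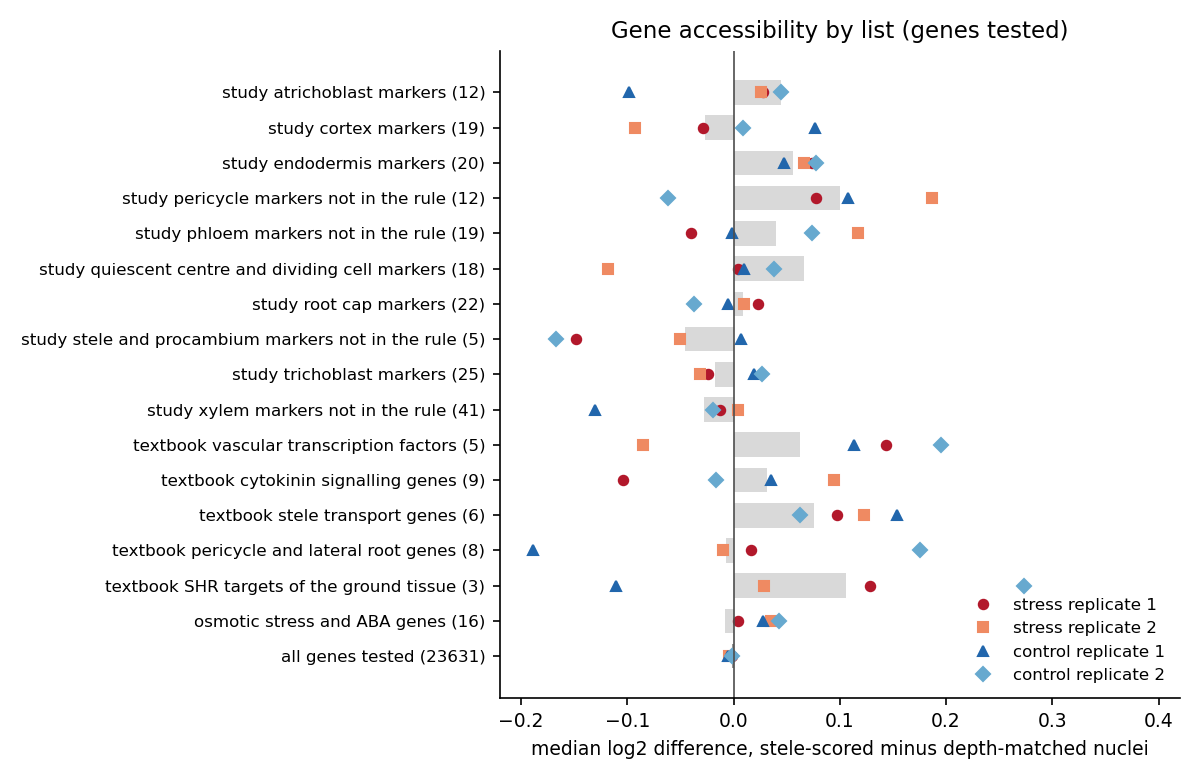
Median log2 difference in gene accessibility between stele-scored and depth-matched nuclei (x axis) for the 16 gene lists and all genes (y axis, number of tested genes in brackets). Bars are the fit over 4 libraries and points single libraries; bars run from -0.05 to 0.11 and the points of single libraries spread wider than the bars.

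Of 5 tested vascular transcription factors 4 were above 0, with a median of 0.06. REV, an HD-ZIP III factor, had a log2 difference of 0.13, and HCA2, a DOF factor on both this list and the study's phloem list, one of -0.08, and neither passed. Of 9 cytokinin signalling genes, 5 were above 0 and the median was 0.03. AHP6, which inhibits cytokinin signalling in protoxylem, held 22.2, 30.7, 19.9 and 24.1 CPM in stele-scored nuclei of stress replicates 1 and 2 and control replicates 1 and 2, against 28.8, 25.9, 34.1 and 31.2 CPM in matched nuclei (log2 -0.29, adjusted p = 0.593, edgeR). It was the lower in 3 libraries and the higher in stress replicate 2.

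Of 6 tested transport genes of the stele 5 were above 0, with a median of 0.08. SULTR2;1, a sulfate transporter of vascular tissue, held 71.7, 72.6, 86.7 and 81.4 CPM in stele-scored nuclei of stress replicates 1 and 2 and control replicates 1 and 2, against 61.4, 62.7, 70.6 and 78.1 CPM in matched nuclei. It was higher in every library, with a log2 difference of 0.19 (SE 0.08, adjusted p = 0.519, edgeR). HMA4, which loads zinc into the xylem, was also higher in every library (26.3 ± 2.29 against 23.6 ± 1.97 CPM, SD, n = 4) and did not pass (log2 0.16). NPF7.2, which retrieves nitrate from the xylem, had a log2 difference of -0.23, and SCR, the SHR partner in the endodermis, one of 0.19.

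RNA of the same nuclei gave 10 rows higher and 1 lower of 18398 tested, 0.0544% and 0.00544%, out of 32833 gene rows in each matrix. The rows carry no gene names in the files used here, so they are described by their values alone. The rises ran from 0.36 to 0.85 on the log2 scale and the fall was -0.74 (adjusted p of 0.00756 to 0.0405, edgeR). All 11 had the same direction in all 4 libraries, as did many rows that were not called. Over all rows tested, 7.76% were higher and 8.28% lower in all 4 libraries. The row with the largest rise held 27.7, 29.7, 49.2 and 27.8 CPM in stele-scored nuclei of stress replicates 1 and 2 and control replicates 1 and 2, against 19.5, 17.6, 18.5 and 15.5 CPM in matched nuclei. The row that fell held 34.8, 27.6, 34.1 and 17.0 CPM against 63.3, 55.5, 44.3 and 22.8 CPM. No RNA row was called with the stricter choices of nuclei, the top 2% of scores, an ATAC minimum of 5000 or scores after thinning (961, 828 and 1058 rows at an unadjusted p under 0.05).

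Within stele-scored nuclei, stress was then compared with control. Of 18329 regions, 22 (0.12%) were higher and 69 (0.376%) lower under stress at an adjusted p under 0.05 (edgeR), and 56 of the 69 matched the mitochondrial genome. Per gene, 35 of 23631 (0.148%) were higher and 110 (0.465%) lower, 86 of the 110 at mitochondrial-like regions. All 159 tested mitochondrial-like genes were below 0, from -1.68 to -0.60 with a median of -0.95. The share of counts in such peaks was also lower in both stress libraries than in both control libraries in matched nuclei. DESeq2 called 0 regions higher and 46 lower, and 2 genes higher and 40 lower. Its filter on low means left the 3 regions and 6 genes named below for the largest rises without an adjusted p. Among the named falls, OLEO3 (gene and region), the regions at AT1G20132 and AT2G07655 and the gene AT2G07749 had none either. Without stress replicate 1, stress replicate 2, control replicate 1 and control replicate 2 in turn, 5, 5, 20 and 297 regions and 51, 63, 50 and 242 genes were called. With organelle-like regions left out of the fit 7 regions were higher and 14 lower, and 26 genes higher and 28 lower.

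The depth-matched nuclei, with about 5 times the counts, gave 311 regions higher (1.7%) and 186 lower (1.01%) under stress, and 143 genes higher (0.605%) and 63 lower (0.267%). The difference in the stress effect between stele-scored and matched nuclei was tested by an interaction term. It passed for 0 of 18330 regions (0%), with 864 at an unadjusted p under 0.05 in edgeR, and DESeq2 also called 0, with 69 at an unadjusted p under 0.05. It passed for 0 of 23631 genes (0%, 1084 at an unadjusted p under 0.05). The median standard error of a stress effect in stele-scored nuclei was 0.24 for regions and 0.21 for genes. Differences between the sets of nuclei well above these values did not pass either, such as 0.80 (SE 0.27) at the AT2G19840 region. The test could thus miss large differences at this depth.

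The largest rise was at AT2G19840, a pseudogene (chr2:8562495-8566522) whose window shares its region with AT2G19850, so that both had the same counts. The region (chr2:8566824-8567806) held 74.0 and 69.8 CPM in stressed stele-scored nuclei, against 19.5 and 29.7 CPM in control stele-scored nuclei. The log2 change was 1.52 (SE 0.26, adjusted p = 0.000112, edgeR). In matched nuclei the region held 58.9 and 60.6 CPM under stress and 32.1 and 39.4 CPM in control, a log2 change of 0.73 (adjusted p = 0.00321). The difference between the sets, 0.80 on the log2 scale (SE 0.27), did not pass (adjusted p = 0.995). The region's call was lost without stress replicate 1 (log2 1.48, adjusted p = 0.0512) and with the top 2% of scores (log2 1.45, adjusted p = 0.243), and its change was 0.94 with the top 10% and 0.91 with thinned scores.

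CIPK25 (chr5:8657604-8659352) encodes a protein kinase that acts with calcineurin B-like calcium sensors. The open region upstream of it (chr5:8659693-8660909) was the only tested region in its window, so gene and region rest on the same counts. This region held 71.1 and 72.9 CPM in stressed stele-scored nuclei, against 31.8 and 34.8 CPM in control ones. Matched nuclei held 69.6 and 78.4 CPM under stress and 39.7 and 34.2 CPM in control, which gave log2 1.1 (SE 0.24, adjusted p = 0.00428) in stele-scored and 1.01 (adjusted p = 5.67e-05) in matched nuclei, with a difference of 0.09 (SE 0.26). The gene passed as well (log2 1.11, adjusted p = 0.00514) and lost the call without stress replicate 1, stress replicate 2 or control replicate 1 (adjusted p = 0.143, 0.162 and 0.112) and with the top 2% of scores (log2 0.76, adjusted p = 0.776). The region lost its call under the same 4 alternatives (adjusted p = 0.256, 0.249, 0.0741 and 0.799). The remaining region (chr2:8668181-8668797) lay 3155 bases from AT2G20080 and 9163 bases from AT2G20100. It held 47.8 and 55.6 CPM under stress and 15.9 and 30.3 CPM in control (log2 1.11, SE 0.29, adjusted p = 0.0449), and lost the call without stress replicate 1, stress replicate 2 or control replicate 1 (adjusted p = 0.445, 0.644 and 0.393). Its change was 0.68 with the top 2% of scores and 0.72 with thinned scores, and did not pass in either, nor with an ATAC minimum of 5000 (adjusted p = 0.0863).

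The other genes with the largest rises were AT3G50140, AT4G10530, PKS1 (a phytochrome kinase substrate) and AT1G51860. PKS1 (chr2:854077-856725) held 40.7 and 37.7 CPM in stressed stele-scored nuclei, against 22.8 and 16.0 CPM in control ones (log2 1.04, SE 0.24, adjusted p = 0.0104, edgeR). In matched nuclei it held 30.5 and 33.8 CPM under stress and 24.5 and 30.3 CPM in control, a log2 change of 0.22 that did not pass (adjusted p = 0.372). PKS1 was at 0.28 with the top 2% of scores, 0.43 with the top 10% and 0.22 with thinned scores, and did not pass in these or without stress replicate 1, stress replicate 2 or control replicate 2 (adjusted p = 0.357, 0.112 and 0.205). The log2 changes of AT3G50140, AT4G10530 and AT1G51860 were 1.05, 1.04 and 0.95 in stele-scored nuclei, beside 0.26, 0.28 and 0.72 in matched nuclei. AT3G50140 and AT4G10530 lost the call without any one of the 4 libraries (adjusted p of 0.0696 to 0.691), and AT1G51860 without stress replicate 1 or control replicate 1 (adjusted p = 0.587 and 0.453). With thinned scores AT3G50140 and AT1G51860 were at 0.18 and 0.50 and did not pass. The differences between the sets at these named genes did not pass the test of the difference itself (adjusted p of 0.873 or more for every named gene).

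OLEO3, an oleosin of the coat of oil bodies, fell under stress and lies outside the mitochondrial insertion (log2 -1.42 for the gene, adjusted p = 0.00153). Its window held a single tested region (chr5:20819510-20820431), so gene and region rest on the same counts. This region held 24.5 and 21.0 CPM in stressed stele-scored nuclei, against 47.8 and 73.6 CPM in control ones (log2 -1.43, SE 0.28, adjusted p = 0.000802, edgeR). In matched nuclei it held 31.2 and 35.9 CPM under stress and 50.7 and 43.9 CPM in control (log2 -0.49, adjusted p = 0.0486). The region's call was lost without stress replicate 1, stress replicate 2 or control replicate 2 (adjusted p = 0.0512, 0.121 and 0.109) and with the top 2% of scores (log2 -1.96, adjusted p = 0.0559), and the change was -0.82 with the top 10%. A region at AT1G20132 (chr1:6980951-6981908) held 10.5 and 12.4 CPM under stress and 42.5 and 28.4 CPM in control (log2 -1.61, SE 0.37, adjusted p = 0.00952), and lost the call without stress replicate 1, stress replicate 2 or control replicate 1 (adjusted p = 0.479, 0.253 and 0.217), with the top 2% of scores (log2 -0.78) and with an ATAC minimum of 5000 (log2 -0.94).

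The other named falls lay in the mitochondrial insertion. The region at AT2G07655 (chr2:3245007-3245669) held 28.5 and 33.4 CPM in stressed stele-scored nuclei, against 134.4 and 69.7 CPM in control ones (log2 -1.69, SE 0.23, adjusted p = 3.1e-07, edgeR), and 55.1 and 58.8 CPM under stress and 130.5 and 67.3 CPM in control matched nuclei. AT2G07749, AT2G07655, AT2G07717, AT2G07784 and AT2G07627 fell by 1.68, 1.24, 1.22, 1.21 and 1.20 on the log2 scale. Without control replicate 1 these were -1.16, -0.72, -0.89, -0.70 and -0.28, and only AT2G07717 still passed. With an ATAC minimum of 5000 the calls of AT2G07749, AT2G07655 and AT2G07717 were lost (adjusted p of 0.072 to 0.0721), and with DESeq2 those of AT2G07784 and AT2G07627. Ribosomal RNA genes, which lie in repeated copies, were also lower: AT2G01010, AT2G01020 and AT3G41979 fell by 0.80, 0.89 and 0.66, and AT3G41768 was at -0.75 and did not pass (adjusted p = 0.152). Their changes in matched nuclei were -0.68, -0.69, -0.63 and -0.65.

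**Figure D5:**
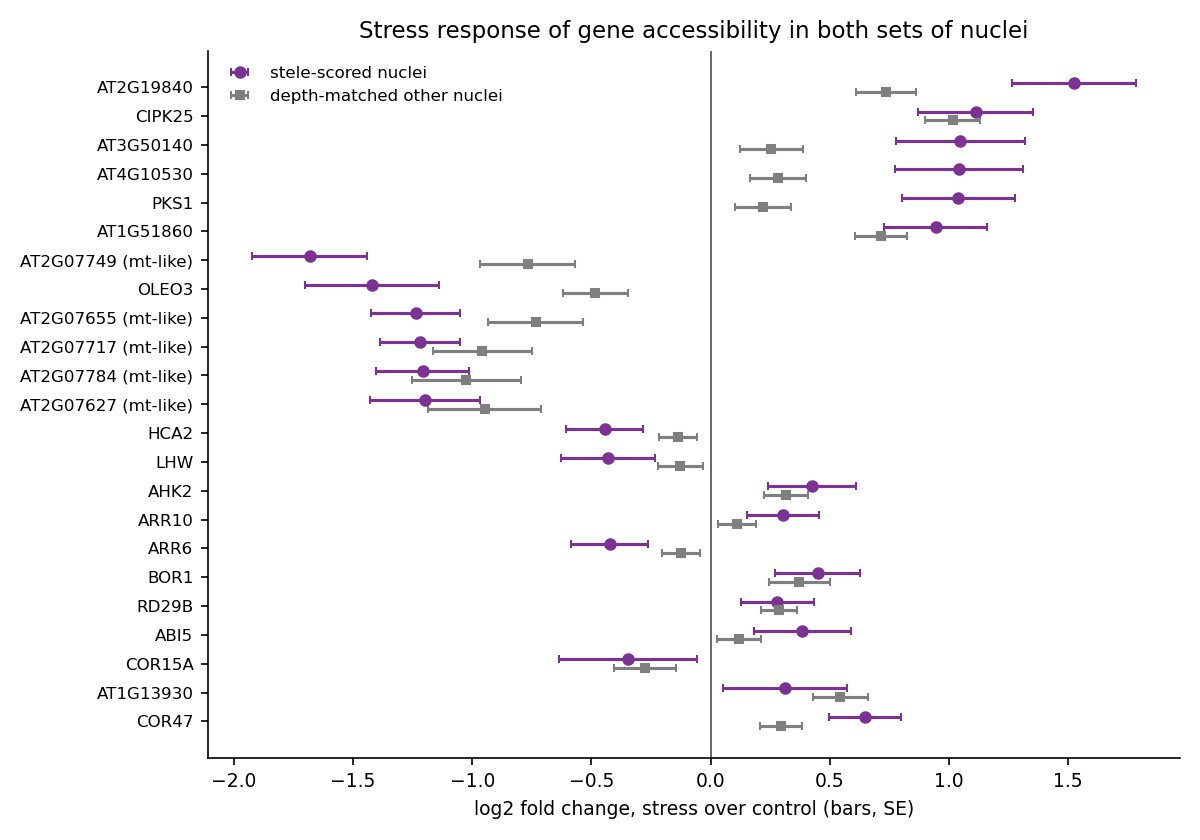
Log2 fold change in gene accessibility, stress over control (x axis, bars show the SE), for the genes named in the text (y axis), in stele-scored nuclei and, below each, depth-matched other nuclei. Genes marked mt-like lie at regions that match the mitochondrial genome. In the 6 genes at the top the stele-scored values run from 0.95 to 1.52 and have wider errors than the matched values.

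Genes of osmotic stress and abscisic acid (ABA) signalling did not pass in stele-scored nuclei, where 12 of 16 were above 0. Their median was 0.13 in stele-scored nuclei, against 0.00081 over all genes, and 0.16 in matched nuclei. In 6 of the 16 both stress libraries lay above both control libraries, and in 3 both lay below. Over all genes these shares were 19.6% and 19.4%. RD29B, an ABA-induced protective protein, held 76.5 and 70.5 CPM in stressed stele-scored nuclei, against 58.6 and 62.2 CPM in control ones (log2 0.28, adjusted p = 0.599, edgeR). ABI5, a bZIP factor of the ABA response, was at 0.38, and COR15A, a chloroplast protein induced by cold and drought, at -0.35. AT1G13930 held 26.2 and 24.9 CPM under stress and 17.2 and 23.5 CPM in control (log2 0.31, adjusted p = 0.775), and passed in matched nuclei (log2 0.54, adjusted p = 0.0421).

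COR47, a dehydrin that protects cells during water loss, is on none of the lists and was picked after its values were seen. It held 99.7 and 94.8 CPM in stressed stele-scored nuclei, against 55.3 and 67.7 CPM in control ones. The log2 change was 0.65 (SE 0.15, adjusted p = 0.0132, edgeR), beside 0.30 (adjusted p = 0.124) in matched nuclei. The call was lost without stress replicate 1, stress replicate 2 or control replicate 1 (adjusted p = 0.388, 0.161 and 0.255) and with DESeq2 (adjusted p = 0.456), and with thinned scores the change was 0.18.

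Stele genes outside the rule gave no call under stress. Of 5 tested vascular transcription factors 4 were below 0, with a median of -0.35 in stele-scored and -0.14 in matched nuclei. LHW, the partner of TMO5, held 32.7 and 32.8 CPM in stressed stele-scored nuclei, against 43.7 and 44.5 CPM in control ones (log2 -0.43, adjusted p = 0.505, edgeR). HCA2, on this list and the phloem list, held 46.3 and 48.5 CPM in stressed stele-scored nuclei, against 70.7 and 59.2 CPM in control ones (log2 -0.44, adjusted p = 0.309). In both genes the stress libraries lay below the control libraries. Of the cytokinin genes, the receptor AHK2 was at 0.43, the type-B response regulator ARR10 at 0.30 and the type-A response regulator ARR6 at -0.42, with adjusted p of 0.365 to 0.538. BOR1, a boron exporter that loads the xylem, was at 0.45 (adjusted p = 0.405). The 5 stele and procambium markers had a median of 0.28, beside 0.18 in matched nuclei, and the pericycle, phloem and xylem markers had medians of -0.06, -0.07 and -0.0041. The remaining lists had medians from -0.13 to 0.13 and held no called gene.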

How the data were processed

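Nuclei of Col-0 root tips were profiled in 2 stress and 2 control libraries. Per the labels, the authors made the deposited ATAC and RNA count matrices with Cell Ranger ARC 2.0.2 on TAIR10. Both hold raw counts, not normalized, and peaks were called per library. ATAC values count cut sites, and 73.7% to 75.9% were even. The submitters' processing notes also name Signac 1.7.0 and Seurat 4.3.0. Cell annotation was not used here. The members, marker set and gene lists were chosen with earlier results of these data known. The study describes its markers as known ones, with references, and annotated the cells of these samples with them.

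Nuclei were chosen by the count limits and score given above, and 5 other nuclei per member were matched on ATAC counts. The study's further filters on the quality of the ATAC signal were not applied, so these nuclei are not the study's set. Counts were summed per library. Peaks overlapping by at least 1 base were merged into 27679 regions, of which 18340 had a peak in all 4 libraries, and the 10 of these in marker windows were left out. Sums were tested with edgeR 4.0.16 (R 4.3.3, TMM, filterByExpr, quasi-likelihood, Benjamini-Hochberg, threshold 0.05), with the library as a block for stele-scored against matched nuclei and without a replicate block for stress against control. DESeq2 1.42.0, other depth, score, count and normalization choices and each library left out were alternatives. Scripts were tested on simulated data. A region was called organelle-like where blastn 2.17.0 aligned 50% or more of it to an organelle genome with 95% identity or more. Sequences and gene models came from RefSeq TAIR10.1, on which 61.0% to 64.6% of peaks lay over gene starts, against 25.2% to 25.6% after a 10 kb shift. Named features had at least 20 CPM, passed the threshold and had the same direction in every library or no overlap between groups, and the largest rises and falls were taken (up to 10 and 6 genes, 5 and 3 regions for stele-scored against matched nuclei, 6 genes and 3 regions each way for stress). Tested genes of the textbook and osmotic lists could also be named.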

Additional observations from a re-analysis of the deposited data

Results flagged for a closer look

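At NPF7.2, which retrieves nitrate from the xylem, stele-scored nuclei lay below matched nuclei in both stress libraries and close to them in both control libraries. NPF7.2 held 14.2 and 16.4 CPM in stele-scored nuclei of the stress libraries against 19.9 and 23.7 CPM in matched nuclei, and 18.5 and 22.4 CPM in stele-scored nuclei of the control libraries against 18.1 and 21.3 CPM in matched nuclei. The mean log2 difference in the stress libraries minus that in the control libraries was -0.5321. The test of this difference gave a log2 value of -0.56 and did not pass (SE 0.30, unadjusted p = 0.0648, adjusted p = 0.9996, edgeR over all genes).

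AT4G30240 had 1 library far from the other 3. Its log2 difference between stele-scored and matched nuclei was -0.7828 in stress replicate 2, where it held 24.9 CPM in stele-scored and 43.5 CPM in matched nuclei. Chance sets apart about 1 in 20 such groups of 4 libraries, and 31 were examined.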

How the results depend on the processing

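Calls between stele-scored and matched nuclei were few and depended on which nuclei were chosen. For regions (1 called), the count was 52 against all other nuclei, 8 with DESeq2, 2 with the top 2% of scores, 12 with the top 10%, 0 with thinned scores, 0 with an ATAC minimum of 5000, 3 with fragments in place of cut sites and 0 without the library block, and 0 to 18 with 1 library left out. For genes (34 called), it was 180 against all other nuclei, 63 with DESeq2, 0 with thinned scores, with an ATAC minimum of 5000 or without the library block, and 0 to 66 with 1 library left out. For RNA rows (11 called), it was 288 against all other nuclei, 106 without a filter on low counts, 24 with library totals in place of TMM, 55 with the top 10% of scores, 0 with the top 2%, with thinned scores, with an ATAC minimum of 5000 or without the library block, and 6 to 21 with 1 library left out.

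For stress against control in stele-scored nuclei, regions (91 called) numbered 46 with DESeq2, 8 with the top 2% of scores, 147 with thinned scores, 60 with an ATAC minimum of 5000 and 5 to 297 with 1 library left out. Genes (145 called) numbered 42 with DESeq2, 46 with the top 2%, 246 with thinned scores and 50 to 242 with 1 library left out. The difference in stress effect (0 regions called) gave 1 against all other nuclei and 0 to 2 with 1 library left out. The causes of these moves were not tested.

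Both alternatives on organelle-like regions were chosen after seeing the data. With such regions left out, 0 of the remaining genes differed between stele-scored and matched nuclei, and 21 regions and 54 genes under stress. With the score taken outside such peaks, 2 regions and 0 genes differed between stele-scored and matched nuclei, and 43 regions under stress.

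Neither the labels nor the study states whether the replicate numbers pair stress and control libraries. The deviations of replicate 1 of each from their group means had a correlation of 0.014 over 18329 regions. A value from a single pair of libraries cannot decide this. With the replicate block, 94 regions and 168 genes were called under stress and 0 regions for the difference in effect.

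Of 453 alternative values for the named features that were called, 282 kept direction and call, 164 lost the call and 7 turned direction. Of 274 for named features with no call, 262 kept their direction without a call and 12 turned direction. Against all other nuclei those that turned were AT2G07784 (0.014), AT2G07648 (0.10), AT2G07719 (0.11), AT2G07795 (0.17) and HCA2 (0.046), on the log2 scale. With the score outside organelle-like peaks they were AT2G07648 (0.0039), AT2G07719 (0.0013) and AT2G07795 (0.012). With thinned scores they were SULTR2;1 (-0.034), HMA4 (-0.10), NPF7.2 (0.061), REV (-0.12), HCA2 (0.11), SCR (-0.049) and, under stress, COR15A (0.10). With an ATAC minimum of 5000 they were HMA4 (-0.10), AHP6 (0.024) and HCA2 (0.041), and HCA2, with a main value of -0.08, ran from -0.18 to 0.0022 with 1 library left out, turning without stress replicate 1.

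Depth limits the comparisons: stele-scored nuclei summed to 1145230 to 1707945 ATAC counts per library over the tested regions, and 2 libraries a group leave few degrees of freedom.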
